A study of Mus musculus with 24 samples.

Results

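The HoxC cluster is a run of 9 homeobox genes on mouse chromosome 15, measured here as Hoxc13, Hoxc12, Hoxc11, Hoxc10, Hoxc9, Hoxc8, Hoxc6, Hoxc5 and Hoxc4, which are 9 of 22359 protein-coding genes in the GENCODE vM1 annotation of build mm9. The genes were taken by name from that annotation, and the cluster itself was chosen from the same ChIP-seq lists, because the widest H3K4me3 regions of the MMTV WT and Wound WT lists lie over Hoxc10 and Hoxc9. Those widths are therefore given as a description and support nothing. The cluster was measured over the span of the 9 genes with 5 kb on each side (chromosome 15, 102746534 to 102872274, 126 kb). All 9 genes lie on the plus strand, so that transcription runs from Hoxc13 towards Hoxc4.

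ChIP-seq had been carried out on 3 kinds of cultured mouse fibroblasts, each immortalised with papillomavirus E6/E7. MEF were embryonic fibroblasts of strain C57BL/6 from embryos of day 10 to 13, MMTV were cancer-associated fibroblasts from MMTV-PyMT mammary tumours of strain FVB/NJ, and Wound were fibroblasts from dorsal skin wounds of C57BL/6 mice at day 10. SG cells (genotype label SG_PRRX1) had been deleted for the homeobox gene Prrx1 with CRISPR/Cas9 and a guide RNA, and the labels name cells treated with SgNS as their WT control. Whether MEF WT carried SgNS, and whether it was the control of both SG and KI cells, is not stated. KI cells (label KI_PRRX1, MEF only) were read as those of the Prrx1 mutant mice, made in 129S and backcrossed to C57BL6, which carry a knocked-in lacZ gene, although the labels do not spell the abbreviation out. MMTV differs from the other types in strain as well as in origin, and these cannot be told apart. H3K4me3 (trimethylation of histone H3 at lysine 4) and H3K27ac (acetylation at lysine 27) each gave 7 peak lists and PRRX1 gave 3, in WT cells only, with 1 list per group throughout. PRRX1 ChIP had been done in duplicate, and whether the duplicates were pooled is not stated. There is no replicate of any list, so values are set side by side and no test was possible.

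Hox genes encode homeodomain transcription factors whose order along the chromosome follows the order in which they are used along the body axis, with the anterior genes at the Hoxc4 end and the posterior genes at the Hoxc13 end. Fibroblasts keep a Hox pattern that reflects the body site they came from. H3K4me3 marks active and poised promoters, H3K27ac marks active promoters and enhancers, and over active Hox clusters both can spread from the start sites across whole genes. PRRX1 is itself a homeodomain protein of mesenchymal cells.

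The H3K4me3 lists held 13125 to 29166 regions and the H3K27ac lists 29325 to 61603 summits, and the depth behind them is unknown. The MEF KI lists were weaker than those of MEF WT, with a median −log10 p of 9.93 against 28.6 for H3K4me3 and 11.9 against 18.5 for H3K27ac. Of 10 fibroblast marker genes, 7 to 9 carried H3K4me3 at a start site in each list, and Lum, a matrix proteoglycan gene, carried none in any. The epithelial list (6 genes) had 0 to 3, the endothelial list (4 genes) 0 to 1 and the immune list (5 genes) 0 to 1, with Krt8, Krt5, Pecam1, Cdh5, Tie1, Ptprc, Lyz2, Itgam and Cd3e without either mark at a start in all 7 lists. Kdr, an endothelial receptor gene, had H3K4me3 at a start in each list but MMTV SG, and both marks in Wound WT (5795 bp of H3K4me3) and Wound SG (6744 bp). Of the epithelial genes, Cdh1 had H3K4me3 at a start in MEF WT, MEF SG and both Wound lists, Epcam in both Wound lists and Krt18 in Wound WT, and Krt14 had H3K27ac at a start in MEF SG. The macrophage gene Cd68 had H3K4me3 at a start in MMTV WT and H3K27ac in MMTV SG and Wound SG. The part of such cells in the values below was not tested. The Prrx1 gene had H3K4me3 at a start in all 7 lists, and H3K27ac at a start only in MEF WT, MMTV SG and Wound SG. Neither mark says anything about a small deletion or an insertion in it. Another gene annotated as protein-coding, Gm17649, starts 283 bp before Hoxc13 on the other strand and shares its promoter region.

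Sequences are shown for 3 sites where PRRX1 lay within the cluster and for the microRNAs encoded between its genes. PRRX1 is a homeodomain protein, and the letters TAAT, the core that many homeodomains read, were searched on both strands, so that ATTA also counts, as were the longer letters TAATTA, each of which holds a TAAT and an ATTA that overlap. The first window lies in an intron of Hoxc6 and holds the strongest PRRX1 summit of the cluster in MMTV WT, with a Wound WT summit 51 bp away. The next lies in an intron of Hoxc5, where the summits of both lists were 132 bp apart. The last lies in an intron of Hoxc4 around a summit of MMTV WT. All are plus strand, mm9, with each TAAT or ATTA in capitals.

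Hoxc6 intron, chr15:102829635-102829886: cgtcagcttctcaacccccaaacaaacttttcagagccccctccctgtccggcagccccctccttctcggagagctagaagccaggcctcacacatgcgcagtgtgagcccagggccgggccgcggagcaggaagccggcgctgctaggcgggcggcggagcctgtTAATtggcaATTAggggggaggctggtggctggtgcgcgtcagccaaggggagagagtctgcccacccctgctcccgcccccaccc
Hoxc5 intron, chr15:102844972-102845264: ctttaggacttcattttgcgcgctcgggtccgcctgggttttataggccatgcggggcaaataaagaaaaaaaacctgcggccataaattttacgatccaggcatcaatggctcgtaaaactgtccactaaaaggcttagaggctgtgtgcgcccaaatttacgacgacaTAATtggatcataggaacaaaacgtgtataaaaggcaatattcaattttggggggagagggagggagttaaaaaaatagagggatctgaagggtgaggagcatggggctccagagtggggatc
Hoxc4 intron, chr15:102863010-102863210: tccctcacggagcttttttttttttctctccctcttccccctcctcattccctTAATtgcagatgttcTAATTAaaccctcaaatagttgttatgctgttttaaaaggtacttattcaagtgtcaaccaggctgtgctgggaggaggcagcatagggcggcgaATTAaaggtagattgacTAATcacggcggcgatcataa

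The window in Hoxc6 held 2 copies of TAAT and 0 of TAATTA in 252 bases, and the window in Hoxc5 1 and 0 in 293 bases. The Hoxc4 window held 5 and 1 in 201 bases. Over windows of 201 bp centred on a summit, TAAT was present in 8 of the 9 cluster summits of MMTV WT and in 7 of the 7 of Wound WT, against 86.1% of 8000 and 82.9% of 5698 summits in the whole lists. TAATTA was present in 3 of 9 and 4 of 7, against 35.5% and 41.9%. Around 45961 protein-coding transcript starts, windows of the same length held TAAT in 32.5% and TAATTA in 1.88%. The shares in the cluster were thus near those of the lists they came from, and a match is a description of letters only.

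Mir196a-2 lies between Hoxc10 and Hoxc9 (chromosome 15, 102803772 to 102803881) and Mir615 in an intron of Hoxc5 (102845341 to 102845432). Both matched RefSeq microRNA entries (GRCm38.p6), from which the mature sequences are given with the seed, bases 2 to 8, in capitals. miR-196a-5p is known for pairing with transcripts of Hox genes, and among the mature microRNAs listed there 1 other, mmu-miR-196b-5p, had the same seed. The other 3 shared their seed with none.

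mmu-miR-196a-5p: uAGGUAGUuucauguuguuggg
mmu-miR-196a-2-3p: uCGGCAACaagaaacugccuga
mmu-miR-615-5p: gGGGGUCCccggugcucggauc
mmu-miR-615-3p: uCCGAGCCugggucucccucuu

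H3K4me3 covered the cluster most widely in the 4 MMTV and Wound lists, less in MEF WT and MEF SG, and not at all in MEF KI. The covered length was 34499 bp in 14 regions in MEF WT (27.4% of the cluster), 29300 bp in 12 regions in MEF SG (23.3%) and 0 in MEF KI. It was 68333 bp in 10 regions in MMTV WT (54.3%) and 73449 bp in 10 regions in MMTV SG (58.4%). Wound WT had 60749 bp in 16 regions (48.3%) and Wound SG 66398 bp in 11 regions (52.8%). All 4 MMTV and Wound values thus lay above those of MEF, and within each type the SG list differed from its WT list by less than the types differed from MEF. With regions under a −log10 p of 10 left out, the 7 values kept this order of types, from 23594 bp in MEF SG to 72524 bp in MMTV SG, and MEF KI was still at 0.

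**Figure D1:**
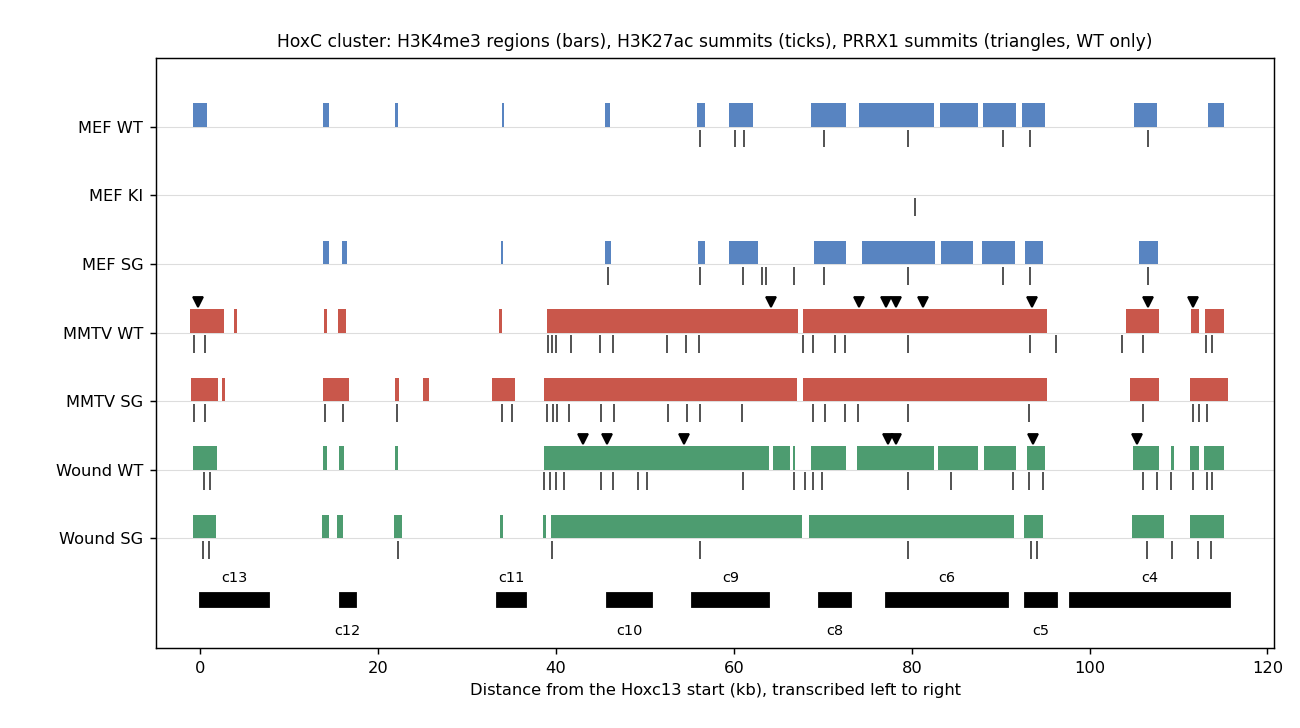
HoxC cluster along the distance in kb from the Hoxc13 start, 1 row per cell type and genotype; bars are H3K4me3 regions, ticks below each row are H3K27ac summits, triangles are PRRX1 summits (WT lists only) and black boxes are the 9 genes. MEF WT and MEF SG are marked mainly from Hoxc9 to Hoxc4, MMTV and Wound add a wide block over Hoxc10 and Hoxc9, and MEF KI holds 1 H3K27ac summit.

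In MMTV and Wound a single wide H3K4me3 region ran over Hoxc10 and into Hoxc9, which neither MEF list had. It began between Hoxc11 and Hoxc10, at 102790534 in MMTV WT, 102790226 in MMTV SG, 102790169 in Wound WT and 102790966 in Wound SG. In MEF WT the 6 regions before 102811004, in Hoxc9, were 228 to 1594 bp wide, and in MEF SG the 5 before 102810934 were 229 to 705 bp wide. The first H3K4me3 base of the cluster lay at the Hoxc13 promoter in the 4 MMTV and Wound lists, between 102750311 and 102750702, and the last between 102866694 and 102867102, near the end of Hoxc4. MEF WT had both ends at nearly the same places, 102750716 and 102866674, but the regions there had a −log10 p of only 6.63 and 6.45. With regions under 10 left out, its first base moved to 102797072, at the Hoxc10 start, and its last to 102859100. In MEF SG the first base was 102765334, and 102797080 with regions under 10 left out, and the last 102859233.

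Much of the marking was shared between lists. A total of 26826 bp in 10 stretches was covered in each list but MEF KI, the widest of them 8068 bp over the start of Hoxc6 (102825953 to 102834020). A further 24866 bp was covered in the 4 MMTV and Wound lists and in neither MEF WT nor MEF SG. Its widest stretch, 9622 bp from 102797709 to 102807330, runs through most of Hoxc10 and the whole of Mir196a-2 to just before the second Hoxc9 start. No base was covered in MEF WT or MEF SG and in none of the 4 others. The cluster's uncovered parts were shared as well, with 48637 bp in no list, among them 9607 bp between Hoxc13 and Hoxc12 (102755653 to 102765259) and 8828 bp at the border of Hoxc5 and Hoxc4 (102846797 to 102855624).

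Of the posterior genes, which pattern the trunk behind the thorax and the outer parts of limbs and skin, Hoxc10 had the largest ratio between MEF WT and each other WT type of all members compared. Each gene was measured as covered bases over its span with 2 kb on each side, and a gene was counted as different between 2 lists at 2-fold or more when 1 of them reached 1000 bp. The measure cannot exceed the window, so a gene covered over most of its window in one list could not be higher by 2-fold in another. Some neighbouring windows overlap and a wide region can span several genes, so calls of members are not independent of each other. Hoxc10, a gene of lumbar identity, had 524 bp in MEF WT and 629 bp in MEF SG, and 9098 bp, its whole window, in each of the 4 MMTV and Wound lists. At its start site the H3K4me3 region was 524 bp wide in MEF WT and part of regions of 28257 bp in MMTV WT, 28437 bp in MMTV SG, 25297 bp in Wound WT and 28250 bp in Wound SG. These rank first, first, first and second by width in their lists. Hoxc10 was thus nearly bare in MEF and fully covered elsewhere.

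Hoxc13, which is needed for hair and nail formation, stood alone at the posterior end. Its window held 1594 bp in MEF WT, 0 in MEF KI and MEF SG, 4150 bp in MMTV WT, 3288 bp in MMTV SG, 2712 bp in Wound WT and 2570 bp in Wound SG. The region at its start had a fold over input of 13.5 in MMTV WT and 14.5 in MMTV SG, the highest of the cluster in those lists, against 2.57 in MEF WT. In MMTV and Wound, Hoxc13 was therefore marked at its promoter while in MMTV WT and Wound WT the stretch from there to the region over Hoxc10 carried only regions under 1000 bp.

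Hoxc12 and Hoxc11 were the least marked members in MMTV WT and Wound WT and the ones that differed most between MMTV WT and MMTV SG. Hoxc12 had 782 bp in MEF WT, 0 in MEF KI, 1178 bp in MEF SG, 1293 bp in MMTV WT, 2983 bp in MMTV SG, 1084 bp in Wound WT and 1370 bp in Wound SG. Hoxc11 had 228 bp in MEF WT, 0 in MEF KI, 229 bp in MEF SG, 368 bp in MMTV WT, 2636 bp in MMTV SG, 0 in Wound WT and 400 bp in Wound SG. MMTV SG was the highest list for both genes. Its regions there had −log10 p values of 29.1 and 17.9, where MMTV WT had 11.1 and 3.04 at the 2 start sites.

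The middle genes Hoxc9 and Hoxc8, which shape the thoracic skeleton and the motor neurons of that level, were marked in both MEF WT and the other types. Hoxc9 had 3682 bp in MEF WT, 3998 bp in MEF SG, 12661 bp in MMTV WT, MMTV SG and Wound SG, and 12207 bp in Wound WT. In MEF WT the mark lay mainly over the later exons, as a region of 2686 bp with a −log10 p of 37.1, while a region of 996 bp at 4.09 covered the second start site and not the first, which lies within 1 kb of it. Hoxc8 had 5039 bp in MEF WT, 4291 bp in MEF SG, 7345 bp in MMTV WT, 7377 bp in MMTV SG, 5281 bp in Wound WT and 6874 bp in Wound SG. Its region was the strongest of the cluster in MEF WT (−log10 p 38.1) and in Wound WT (19.4). Both genes were at 0 in MEF KI. Hoxc9 thus differed in extent by more than 2-fold between MEF WT and the other WT types, while Hoxc8, covered over 65.9% of its window in MEF WT, could not be higher by 2-fold.

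The anterior genes, active at cervical and brachial levels, were marked in each list but MEF KI. Hoxc6, with 3 annotated start sites the most of any member, had 15665 bp in MEF WT, 14840 bp in MEF SG, 17625 bp in MMTV WT and MMTV SG, 15405 bp in Wound WT and 16493 bp in Wound SG, or 84.2% to 100% of its window. Hoxc5 had 3550 bp in MEF WT, 2939 bp in MEF SG, 4551 bp in MMTV WT, 4468 bp in MMTV SG, 3077 bp in Wound WT and 2926 bp in Wound SG. Hoxc4 had 4459 bp in MEF WT, 2160 bp in MEF SG, 6822 bp in MMTV WT, 7490 bp in MMTV SG, 6524 bp in Wound WT and 7518 bp in Wound SG. All 3 were at 0 in MEF KI, and among the other 6 lists Hoxc4 alone of the 3 varied by more than 2-fold, with MEF SG the lowest. In Hoxc4 the mark lay over an intron (102856496 to 102859100 in MEF WT) and, in each list but MEF KI and MEF SG, the second start site, while the first start site, at 102849367, lies in the stretch covered in no list.

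**Figure D2:**
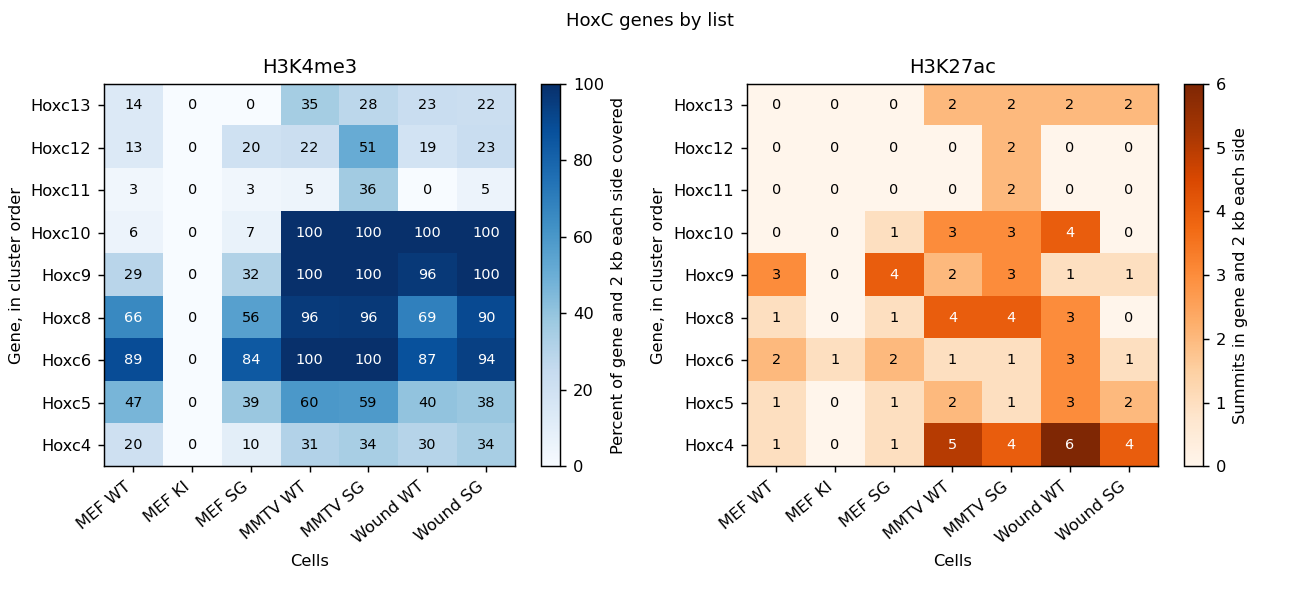
Left, percent of each HoxC gene's window (gene with 2 kb each side) covered by H3K4me3 in 7 lists; right, number of H3K27ac summits in the same window; rows run from Hoxc13 to Hoxc4. Hoxc10 goes from 5.76% in MEF WT to 100% in the MMTV and Wound lists, and the MEF KI column is 0 but for 1 summit at Hoxc6.

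Counted over the 9 members, an H3K4me3 region lay within 1 kb of a start site in 8 genes in MEF WT (all but Hoxc12), against 55.1% of all protein-coding genes. MEF KI had 0 (50.0% of all genes), and MEF SG had 7, all but Hoxc13 and Hoxc4 (53.6%). MMTV WT and MMTV SG had 9 each (54.2% and 54.7%), Wound WT 8, all but Hoxc11 (57.4%), and Wound SG 9 (57.6%). With regions under a −log10 p of 10 left out, MEF WT and MEF SG each had 4. The same 4 and 4 were found with lists of equal size, and the shares of all genes were not computed at either setting.

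Between WT types, 3 of the 8 members compared were higher by 2-fold or more in MMTV WT than in MEF WT (Hoxc13, Hoxc10 and Hoxc9), against 17.2% of all genes compared in that direction. In Wound WT, 2 of 8 were higher than in MEF WT (Hoxc10 and Hoxc9), against 2.96%. With regions under a −log10 p of 10 left out, 5 members passed 2-fold in MMTV WT and 4 in Wound WT. Hoxc10 was 17.4 times as long as in MEF WT in both, and Hoxc9 was 3.44 times as long in MMTV WT and 3.32 times in Wound WT. Over the genes compared that had H3K4me3 in both lists, the median log2 ratio was 0.47 from MEF WT to MMTV WT and -0.06 from MEF WT to Wound WT, and that of the 8 members 0.67 and 0.51. Both comparisons share the MEF WT list. These contrasts are among those from which the cluster was chosen, so nothing is read from the counts. MMTV WT and Wound WT differed by 2-fold in 0 of the 8 members compared, against 18.8% of all genes lower and 4.19% higher in Wound WT. The largest ratio was at Hoxc13 (4150 bp against 2712 bp), and 2 members differed with regions under 10 left out.

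The lists of Prrx1-deleted cells did not move in 1 direction. Over the genes compared that had H3K4me3 in both lists, the median log2 ratio from WT to SG was -0.10 in MEF, -0.06 in MMTV and 0.20 in Wound. Over the members it was -0.15, 0 and 0.08 in the same order. From MEF WT to MEF SG, 2 of the 7 members compared were lower by 2-fold or more, Hoxc13 and Hoxc4, against 2.34% of all genes compared; with regions under a −log10 p of 10 left out, 0 were. From MMTV WT to MMTV SG, 2 of 9 were higher, Hoxc12 at 2.31 times and Hoxc11 at 7.16 times, against 5.76%, and the other 7 did not pass, the lowest being Hoxc13 at 0.792 times. From Wound WT to Wound SG, 0 of 8 passed, with ratios of 0.948 to 1.30, against 0.694% of all genes lower and 3.42% higher, and 1 passed with regions under 10 left out. Hoxc10, Hoxc9, Hoxc8, Hoxc6 and Hoxc5 were covered over 59.8% to 100% of their windows in MMTV WT, and Hoxc10, Hoxc9, Hoxc8 and Hoxc6 over 69.1% to 100% in Wound WT, so these could not be called higher in the SG lists. Prrx1 deletion and the culture or clone that carried it cannot be told apart with 1 list per genotype.

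The largest difference was in MEF KI, where no H3K4me3 region lay in the cluster. All 6 members compared were lower than in MEF WT, against 16.0% of all genes compared, and the other 3 had under 1000 bp in MEF WT. The members lie side by side, so these calls are not independent of each other. Among the 11179 genes compared that had H3K4me3 in both lists the median log2 ratio of covered bases was -0.40. The nearest regions of that list ended at 102552574 before the cluster and started at 102992935 after it, which left 440 kb without H3K4me3, against 312 kb between the outer neighbours of the cluster in MEF WT. Of the 14 MEF WT regions in the cluster, 14 had no overlapping region in MEF KI, against 26.3% of all 16089. For regions with a −log10 p of 20 or more, the 6 in the cluster were all without a counterpart, against 2.02% of all 10191 of that strength. The lower strength of the MEF KI list was present throughout the genome, and its part in the empty cluster was not tested.

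Genes further out were set beside the cluster. Smug1, a DNA repair gene and the nearest protein-coding gene beyond Hoxc4, had 0 bp in MEF WT, MEF KI, MEF SG, Wound WT and Wound SG, 473 bp in MMTV WT and 269 bp in MMTV SG. Calcoco1 on the Hoxc13 side and the heterochromatin protein gene Cbx5 on the Hoxc4 side, named after their values were seen, had 1035 bp and 8724 bp in MEF WT and 676 bp and 6729 bp in MEF KI. Gm17649, the nearest on the Hoxc13 side, lies in the Hoxc13 promoter region and followed it, with 0 in MEF KI and MEF SG. H3K4me3 was thus still listed at Calcoco1 and Cbx5 in MEF KI.

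H3K27ac gave the same picture in MEF KI. The list had 1 summit in the cluster, at 102831901 in Hoxc6, with a −log10 p of 5.29, which placed it at 29023 of 29325 in its list. MEF WT had 8 summits with values up to 100.1, and 8 of them had no MEF KI summit within 500 bp, against 55.7% of all 44918. Of those at 20 or more, 6 of 6 had none, against 30.1% of all 20916.

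In the other lists the cluster held 11 H3K27ac summits in MEF SG, 22 in MMTV WT, 27 in MMTV SG, 26 in Wound WT and 12 in Wound SG. With lists of equal size MMTV WT had 14 and Wound WT 23. The strongest had a −log10 p of 137 in MEF SG, 163 in MMTV WT, 124 in MMTV SG, 78.6 in Wound WT and 102 in Wound SG. Each list gives 1 summit per peak and no width, so a long acetylated stretch called as 1 peak counts once, and the number of summits need not follow the amount of acetylation. Wound SG had fewer summits than Wound WT and a stronger one, and 0 summits over 16.6 kb between 102791113 and 102807720, where its H3K4me3 was unbroken.

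The strongest HoxC summits of MEF WT and MEF SG lay in Hoxc8, Hoxc6, Hoxc5 and Hoxc4. MEF WT and MEF SG placed summits at the same base in Hoxc8 (102821714, with −log10 p of 84.8 and 121) and 1 bp apart in Hoxc6, past the last of its start sites (102841828 and 102841829, with 87.5 and 137). Within 200 bp of the second Hoxc6 start, a summit was found in each list but MEF KI, at 102831153 in MEF WT (100.1), 102831159 in MEF SG (132), 102831140 in MMTV WT (163), 102831083 in MMTV SG (110), 102831142 in Wound WT (73.0) and 102831097 in Wound SG (102). By rank in its list it went from 23 of 53873 in MMTV WT to 532 of 61603 in MMTV SG. All 6 lists other than MEF KI thus placed a strong summit at this Hoxc6 site, while the 1 summit of MEF KI lay 941 bp past that start.

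Of the posterior genes, Hoxc13 had H3K27ac summits in the MMTV and Wound lists, and Hoxc10 in both MMTV lists, Wound WT and MEF SG. Hoxc10 had 0 summits in MEF WT, 1 in MEF SG (27.4), 3 in MMTV WT (up to 130), 3 in MMTV SG (up to 97.6), 4 in Wound WT (up to 71.7) and 0 in Wound SG. Hoxc13 had 0 in the 3 MEF lists and 2 in each MMTV and Wound list, the strongest at 69.7 in MMTV WT, 66.0 in MMTV SG, 14.4 in Wound WT and 12.3 in Wound SG. The median summit of the whole list was at 21.2 in MEF SG, 15.2 in Wound WT and 16.3 in Wound SG, so that the Hoxc10 summit of MEF SG lay above its list's median and the Hoxc13 summits of Wound below theirs. Hoxc12 and Hoxc11 had 2 summits each in MMTV SG, up to 48.3 and 16.1, and 0 in the 6 other lists. These 2 genes had too few summits to be compared between MMTV WT and MMTV SG by the rule on counts used below.

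**Figure D3:**
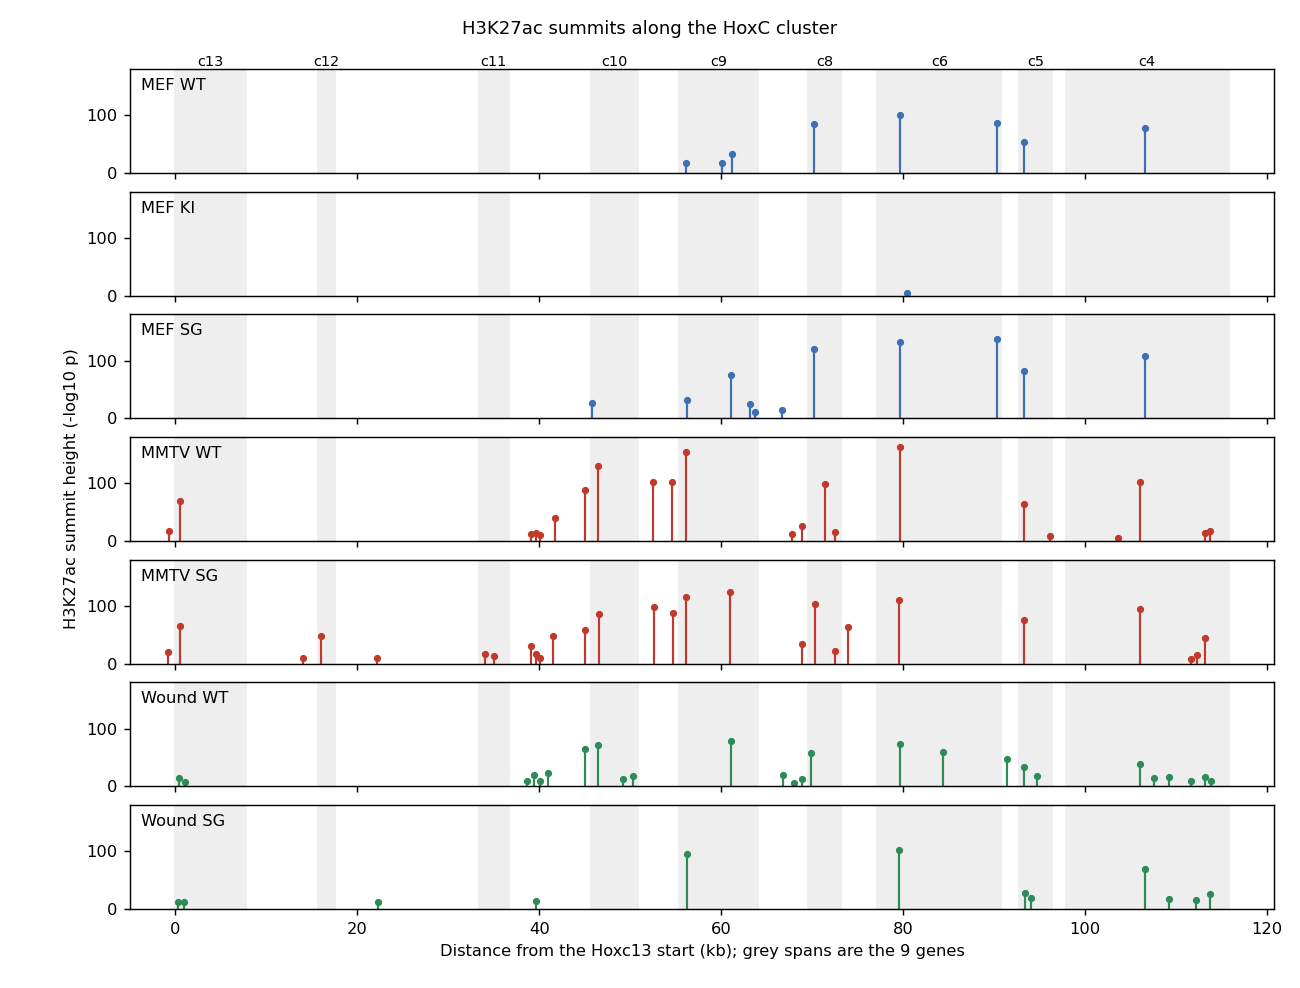
H3K27ac summits along the HoxC cluster in 7 lists; height is the −log10 p of each summit on a shared axis, and the x axis is the distance in kb from the Hoxc13 start. Summits stand at Hoxc13 and from just before Hoxc10 onwards in MMTV and Wound and from Hoxc9 onwards in MEF WT, with further summits at Hoxc12, at Hoxc11 and between them in MMTV SG and 1 between them, at 22.2 kb, in Wound SG.

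At start sites, an H3K27ac summit lay within 1 kb in 4 members in MEF WT (Hoxc9, Hoxc8, Hoxc6 and Hoxc5), against 48.4% of all genes, and in 1 in MEF KI (Hoxc6, 37.8%). MEF SG had 5, with Hoxc10 added (50.2%). MMTV WT had 7, all but Hoxc12 and Hoxc11 (48.5%), and MMTV SG had 9 (50.7%). Wound WT had 6, all but Hoxc12, Hoxc11 and Hoxc9 (47.3%), and Wound SG had 5, which were Hoxc13, Hoxc9, Hoxc6, Hoxc5 and Hoxc4 (49.4%). Within 500 bp of a start the counts were 4 in MMTV SG and in both Wound lists, 3 in MMTV WT and MEF SG, 2 in MEF WT and 0 in MEF KI, so the counts depend on the distance allowed.

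Few members had the 3 summits in 1 list that a comparison of counts required. From MEF WT to MEF KI, 1 of 1 was lower (Hoxc9, from 3 to 0), against 38.8% of all genes compared. The count past 2-fold was 4 with a 10 kb window and 2 with a filter of 2 summits. From Wound WT to Wound SG, 3 of 5 were lower, Hoxc10 from 4 to 0, Hoxc8 from 3 to 0 and Hoxc6 from 3 to 1, against 10.7%, with the limit on merged peaks given above. For this pair the count past 2-fold was 6 with a 10 kb window and 2 with lists of equal size. From MEF WT to MMTV WT, 3 of 4 were higher (Hoxc10, Hoxc8 and Hoxc4), against 26.6%, and 1 passed with lists of equal size and 6 with a filter of 2 summits. From MEF WT to Wound WT, 4 of 6 were higher (Hoxc10, Hoxc8, Hoxc5 and Hoxc4), against 12.8%, and Hoxc9 was lower, against 25.8%. From MMTV WT to Wound WT, 1 of 5 was higher (Hoxc6, from 1 to 3), against 8.19%, and 0 were lower, against 36.7%; the count past 2-fold was 0 with a 10 kb window and 3 with summits under a −log10 p of 10 left out or with lists of equal size. From MEF WT to MEF SG, 0 of 1 passed, against 14.3% of all genes lower and 11.6% higher. From MMTV WT to MMTV SG, 0 of 4 passed, against 11.0% and 19.4%, and the count was 3 with a 10 kb window or a filter of 2 summits and 1 with lists of equal size.

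When neighbouring summits were joined and ranked by their summed −log10 p, which is not the signal over enhancer regions that is used to define super-enhancers, the HoxC cluster ranked 4 of 13901 in Wound WT, where 1 joined cluster of 24 summits ran over 75.2 kb from 102790142 to 102865351. It ranked 14 of 18506 in MMTV WT (14 summits, 40.6 kb), 22 of 19061 in MMTV SG (20 summits, 65.5 kb), 32 of 17687 in MEF SG (10 summits, 47.5 kb) and 100 of 18313 in MEF WT (7 summits, 37.1 kb). Each of these ranks is that of the best joined piece. The cluster held 2 pieces in Wound WT, MEF WT and MEF SG, 3 in MMTV WT and 4 in MMTV SG. In Wound SG the cluster held 6 pieces, of which the best ranked 886 of 18052, and in MEF KI the single summit ranked 13445 of 13518. Joined at 5 kb instead, the ranks fell to 77 in Wound WT, 84 in MMTV WT, 83 in MMTV SG, 175 in MEF SG and 916 in MEF WT, and ordered by number of summits they were 16, 295, 154, 280 and 628. With lists of equal size they were 4, 24, 6, 20 and 50, so the order of the lists depends on the setting. Ranks rest on how summits were spaced as well as on their strength, and the Wound SG rank goes with the long gaps between its summits.

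PRRX1 lay in the cluster in MMTV WT and Wound WT and not in MEF WT. MMTV WT had 9 of its 8000 summits there, Wound WT 7 of 5698 and MEF WT 0 of 3048, the shortest list, whose nearest summit to any of these lay 196649 bp away. Members with a PRRX1 summit in the gene or within 2 kb numbered 6 in MMTV WT, against 16.5% of all genes, and 5 in Wound WT, against 12.8%. Hoxc9, Hoxc6, Hoxc5 and Hoxc4 had one in both. With the 3 lists cut to equal size, MMTV WT had 5 summits in the cluster and Wound WT 6, and with summits under a −log10 p of 10 left out they had 3 and 2.

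The strongest PRRX1 site in MMTV WT was in an intron of Hoxc6. Its summit had a −log10 p of 27.4 at 102829735 in MMTV WT, rank 177 of 8000, and 11.5 at 102829786 in Wound WT, rank 554 of 5698. A second shared site lay 34 bp before the first Hoxc6 start in MMTV WT (102828654, 9.08) and 133 bp after it in Wound WT (102828821, 7.30). The third was in Hoxc5, with 10.2 at 102845052 in MMTV WT and 12.7 at 102845184, the strongest of the cluster, in Wound WT. These 3 sites, within 167 bp of each other between the lists, are the ones held in common.

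The remaining PRRX1 summits had no summit of the other list within 500 bp. In MMTV WT they lay 281 bp before the Hoxc13 start (102751253, 8.16), after Hoxc9 (102815690, 6.48), before Hoxc6 (102825586, 4.29), in Hoxc6 (102832837, 4.33) and in introns of Hoxc4 (102858124, 7.56, and 102863110, 11.2). In Wound WT they lay before Hoxc10 (102794539, 3.66, and 102797212, 6.32, the latter 15 bp before its start), before Hoxc9 (102805874, 8.31) and in an intron of Hoxc4 (102856814, 8.14). The Hoxc4 summits of MMTV WT were 1310 bp and 6296 bp from that of Wound WT. MMTV WT thus had PRRX1 at Hoxc13 and Wound WT at Hoxc10, both at promoters within H3K4me3.

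**Figure D4:**
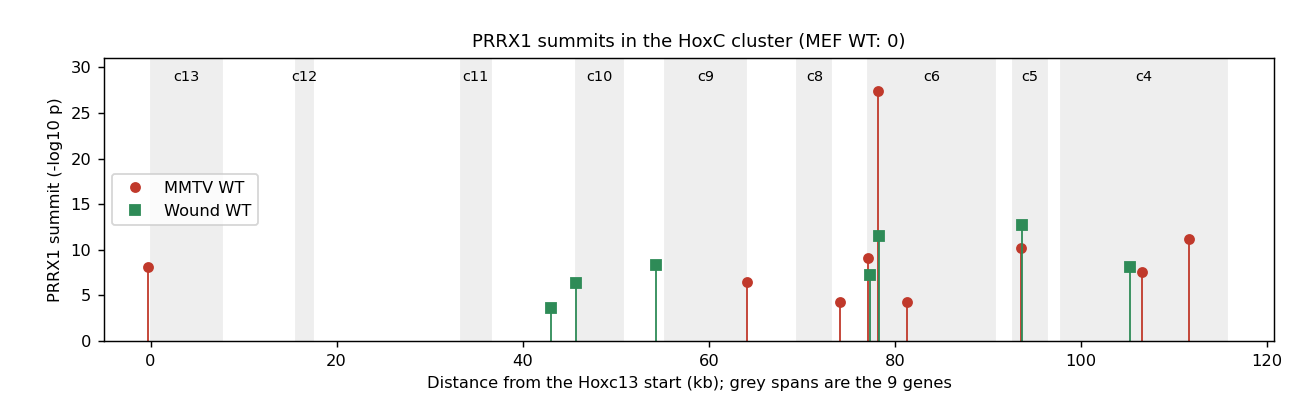
PRRX1 summits in the HoxC cluster by distance in kb from the Hoxc13 start; height is −log10 p, circles are MMTV WT (9 summits) and squares are Wound WT (7 summits), and MEF WT has 0. The highest circle, 27.4, and a square at 11.5 stand together in Hoxc6, and a pair at 10.2 and 12.7 in Hoxc5.

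All 9 PRRX1 summits of MMTV WT and all 7 of Wound WT lay inside an H3K4me3 region of the same cells, against 44.7% and 28.2% of the whole lists. The cluster was chosen for its wide H3K4me3 in these 2 lists, which cover 54.3% and 48.3% of it, so nothing is read from this count. An acetylation summit lay within 500 bp of 2 of 9 and 1 of 7, against 45.4% and 33.2%, within 1000 bp of 3 and 3, and within 250 bp of 0 and 0. At the Hoxc6 intron the nearest H3K27ac summit was 1405 bp away in MMTV WT and 1356 bp in Wound WT, and in the SG lists it was 1348 bp and 1311 bp. At the Hoxc5 intron it was 262 bp and 427 bp in WT and 289 bp and 227 bp in SG. At the Hoxc10 start in Wound, the nearest was 663 bp in WT and 6099 bp in SG.

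The noncoding genes inside the cluster followed their neighbours. Gm20398, a processed transcript from Hoxc10 into Hoxc5, was covered by H3K4me3 over 54.3% of its length in MEF WT, 51.7% in MEF SG, 0% in MEF KI, 98.8% in MMTV WT, 98.6% in MMTV SG, 87.0% in Wound WT and 96.1% in Wound SG. Mir196a-2 was covered in full in the 4 MMTV and Wound lists and not in the 3 MEF lists, and the H3K27ac summit nearest to its midpoint lay 187 bp away in MMTV WT, 265 bp in MMTV SG, 2019 bp in Wound WT, 3894 bp in Wound SG, 3868 bp in MEF WT, 3929 bp in MEF SG and 28075 bp in MEF KI. Mir615 was covered in full in each list but MEF KI. Gm16258, an antisense transcript between Hoxc12 and Hoxc11, had 682 bp in MMTV SG and 0 in the 6 others. The 2 microRNAs whose sequences are given above thus differed, Mir196a-2 going with Hoxc10 and Mir615 with Hoxc5.

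A separate marked site, noticed after the values were seen, lay beyond the cluster, 21.4 to 22.6 kb past the end of Hoxc4 and outside any annotated protein-coding gene. H3K4me3 covered 3398 bp in MMTV WT (102888773 to 102892170), 3981 bp in MMTV SG, 3321 bp in Wound WT, 3690 bp in Wound SG and 930 bp in MEF WT, and nothing in MEF KI or MEF SG. An H3K27ac summit stood there in the same 5 lists, at 53.9 in MMTV WT, 49.2 in MMTV SG, 40.4 in Wound WT, 49.1 in Wound SG and 9.24 in MEF WT. PRRX1 had 2 summits at it in MMTV WT, with −log10 p of 5.77 and 5.44, and 0 in Wound WT and MEF WT.

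The other Hox clusters were set beside HoxC over their genes with 5 kb on each side, with Hoxb13, which lies apart, left out of the HoxB span. HoxB went with HoxC in MEF KI: its H3K4me3 covered 33358 bp in MEF WT and 4603 bp in MEF KI, and its H3K27ac summits numbered 20 and 1. HoxA had 49593 bp and 31 summits in MEF WT and 38089 bp and 30 summits in MEF KI, and HoxD 11347 bp and 9 summits against 23493 bp and 17. Among genes compared for H3K4me3, 8 of 8 HoxB genes were lower in MEF KI, 1 of 7 HoxD genes was lower and 4 were higher, and of 11 HoxA genes 4 were lower and 2 higher, against 16.0% of all genes compared that were lower and 0.520% that were higher. Higher values in MEF KI included posterior genes, where Hoxd11 went from 0 to 8607 bp, Hoxd13 from 0 to 6876 bp and Hoxa13 from 867 bp to 5046 bp. HoxC was thus the one cluster of the 4 without any H3K4me3 region in MEF KI.

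Over WT types, the covered share of HoxC was 27.4% in MEF, 54.3% in MMTV and 48.3% in Wound, while in the same order HoxA had 42.9%, 37.3% and 40.6%, HoxB 31.2%, 36.1% and 31.8%, and HoxD 10.6%, 7.82% and 13.5%. HoxC was chosen for its wide H3K4me3 in MMTV WT and Wound WT, so nothing is read from this contrast between clusters. In Wound SG the shares were 52.8% in HoxC, 50.1% in HoxA, 51.0% in HoxB and 13.8% in HoxD. PRRX1 had 9 and 7 summits in HoxC in MMTV WT and Wound WT, 5 and 6 in HoxA, 0 and 1 in HoxB and 0 in HoxD, and 0 in each cluster in MEF WT.

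**Figure D5:**
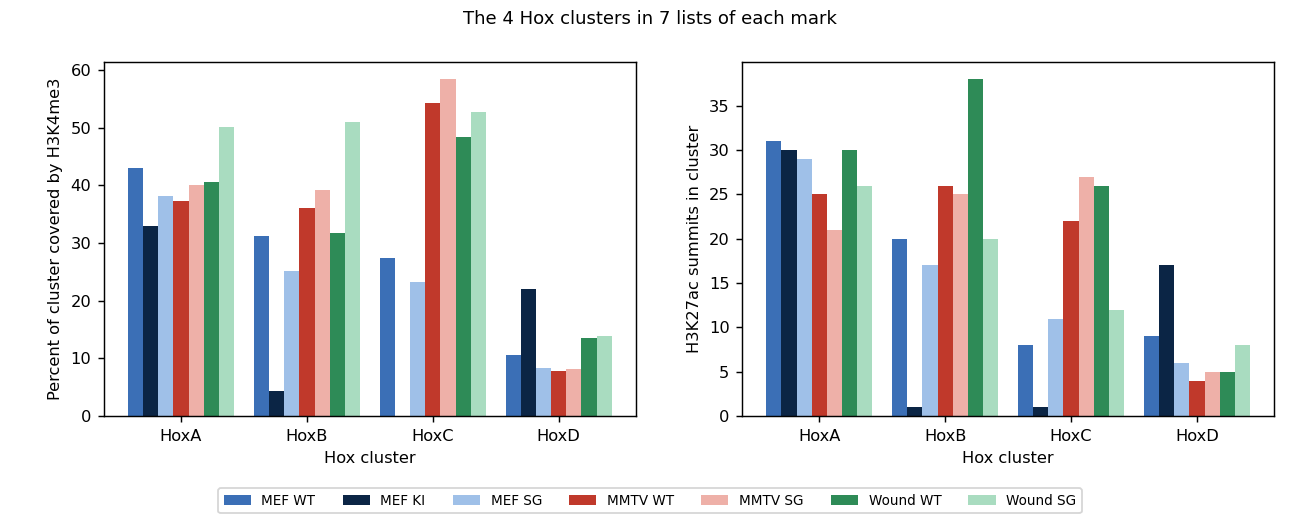
Percent of each Hox cluster covered by H3K4me3 (left) and number of H3K27ac summits (right), 1 bar per list, with clusters on the x axis. HoxC has no H3K4me3 bar in MEF KI and its tallest bars in MMTV and Wound. HoxA and HoxB have their tallest bars, 50.1% and 51.0%, in Wound SG, and HoxD has its tallest bar, 22.0%, in MEF KI.

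Among 11236 genes outside the cluster with at least 2000 covered bases in 1 list, the 5 whose H3K4me3 profile over the 7 lists was nearest to that of the cluster were Ppp1r3b, B930041F14Rik, Epor, 1700003E16Rik and Gpnmb, each list taken relative to the highest of the same gene. Their mean absolute difference from the cluster was 0.0454, 0.0489, 0.0575, 0.0601 and 0.0632, where 0 would be the same profile and the median gene had 0.225. Ppp1r3b, a regulator of glycogen synthesis, had 1341 bp in MEF WT, 0 in MEF KI, 1178 bp in MEF SG, 2165 bp in MMTV WT, 2533 bp in MMTV SG, 1958 bp in Wound WT and 2133 bp in Wound SG. Gpnmb, which encodes a membrane glycoprotein, had 2392 bp, 0, 2065 bp, 3652 bp, 4911 bp, 3072 bp and 4515 bp in the same order. Of the 5 genes, Ppp1r3b, Epor and Gpnmb had 0 in MEF KI, as the cluster had, while B930041F14Rik had 802 bp and 1700003E16Rik 262 bp there, and all 5 were highest in MMTV SG. In all, 53 of the 11236 genes lay within 0.1.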

How the data were processed

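Of 24 samples, 17 had peak lists (7 H3K4me3, 7 H3K27ac and 3 PRRX1), and the 7 inputs entered through peak calling. Per the labels and the study's methods, the authors used Trimmomatic for trimming, Bowtie for alignment (build mm9) and MACS2 for peak calling over input. The submitters' processing notes also name deepTools. The deposited H3K4me3 lists give regions with a score, a fold (ratio) over input, and −log10 p and −log10 q values. The deposited H3K27ac and PRRX1 lists give summits, with −log10 values and no width. The PRRX1 lists reach down to a −log10 p of 3.00. Depth is unknown, so no interval or floor is given.

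Lists were read with Python 3.11.15, numpy 2.4.6 and pandas 2.3.3, sequences with pysam 0.24.0 from mm9, and genes from GENCODE vM1 on the same build. H3K4me3 was counted as covered bases and H3K27ac as summits in each gene with 2 kb on each side, and start sites as marked within 1 kb. Genes were compared with 1000 covered bases or 3 summits in 1 list and called at 2-fold. Summits within 12.5 kb were joined and ranked by summed −log10 p. The counting was tested on simulated data for MEF WT H3K4me3 over 22359 genes. Regions of 200 well-covered genes were shortened well past the 2-fold limit, and 199 of the 200 were recovered. This checks the counting code and not the sensitivity of the comparisons. With 1 list per group there were no tests. Alternatives were other p limits, lists of equal size, flanks, windows, filters, folds, start distances and joining distances. The members and lists were chosen with earlier results of these data known. Named were all members, noncoding genes inside the cluster, the nearest protein-coding gene beyond each end, each PRRX1 summit of the cluster and the 5 genes of nearest H3K4me3 profile. Other Hox genes were counted, with extremes named. The list of Hox cofactors and 1 sequence window are not reported here.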

Additional observations from a re-analysis of the deposited data

Results flagged for a closer look

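The differences of the SG and KI lists from WT went in opposite directions between fibroblast types and, for H3K27ac summits, between MEF KI and MEF SG. These differences were not tested, since each group has 1 list. The number of H3K27ac summits in the HoxC cluster changed by -7 from MEF WT to MEF KI and by -14 from Wound WT to Wound SG, and by 3 from MEF WT to MEF SG and 5 from MMTV WT to MMTV SG. The H3K4me3 covered length of the cluster changed by -34499 bp in MEF KI and by -5199 bp in MEF SG, and by 5116 bp in MMTV SG and 5649 bp in Wound SG. The whole H3K4me3 lists covered 30.5 Mb in MEF WT, 20.7 Mb in MEF KI and 26.9 Mb in MEF SG. They covered 50.2 Mb in MMTV WT and 51.3 Mb in MMTV SG, and 29.8 Mb in Wound WT and 36.4 Mb in Wound SG. In each pair the whole list thus moved the same way as the cluster. MEF KI and MEF SG were both set against the same MEF WT list. In Wound SG more H3K4me3 bases thus went with fewer H3K27ac summits, although the strongest summit of the cluster had a −log10 p of 102 in Wound SG against 78.6 in Wound WT, and a count of summits need not follow the amount of acetylation.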

How the results depend on the processing

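Of 258 values under alternative settings, 192 moved by no more than 1.5 times (positions by less than 1000 bp) and 66 moved further. Values did not move further without the flank, with a 20 kb flank, with PRRX1 at a −log10 p of 5 or more, with a 500 bp filter, over coding spans, from start codons or within 2500 bp of a start. For the moved values the cause was not tested. With −log10 p of at least 10, H3K27ac summits in MEF KI went to 0, PRRX1 summits to 3 in MMTV WT and 2 in Wound WT, H3K4me3-marked starts to 4 in MEF WT and 4 in MEF SG, and H3K27ac-marked starts in MEF KI to 0. H3K4me3 2-fold counts became 0 for MEF SG, 1 for Wound SG, 5 for MEF WT to MMTV WT, 4 for MEF WT to Wound WT and 2 for MMTV WT to Wound WT, and the H3K27ac count of the last became 3. The first base moved to 102797072 in MEF WT and 102797080 in MEF SG, the last in MEF WT to 102859100, and PRRX1 summits near H3K27ac in MMTV WT to 1. With lists of equal size, H3K27ac summits in MMTV WT were 14, PRRX1 summits in MMTV WT 5, and H3K4me3-marked starts 4 in MEF WT and 4 in MEF SG. H3K4me3 2-fold counts were 0 for MEF SG, 1 for Wound SG and 1 for MMTV WT to Wound WT, and H3K27ac counts 1 for MMTV SG, 1 for MEF WT to MMTV WT and 3 for MMTV WT to Wound WT. First bases were 102765264 in MEF WT and 102797080 in MEF SG, the last in MEF WT 102859100, and ranks of the joined H3K27ac cluster 50 in MEF WT, 20 in MEF SG, 24 in MMTV WT and 6 in MMTV SG. With the start itself covered, H3K4me3-marked starts in MEF SG were 3, and within 500 bp H3K27ac-marked starts were 2 in MEF WT, 3 in MEF SG, 3 in MMTV WT, 4 in MMTV SG and 0 in MEF KI. At 1.5-fold, H3K4me3 counts were 5 for MEF WT to MMTV WT and 1 for MMTV WT to Wound WT, and H3K27ac counts 1 for MMTV SG, 5 for Wound SG and 2 for MMTV WT to Wound WT. With a 10 kb window, H3K27ac counts were 4 for MEF KI, 3 for MMTV SG, 6 for Wound SG, 5 for MEF WT to MMTV WT and 0 for MMTV WT to Wound WT, and with a filter of 2 summits 2 for MEF KI, 3 for MMTV SG, 6 for MEF WT to MMTV WT and 2 for MMTV WT to Wound WT. Joined at 5 kb, ranks were 916 in MEF WT, 175 in MEF SG, 84 in MMTV WT, 83 in MMTV SG and 77 in Wound WT, and ranked by number of summits 628, 280, 295, 154 and 16 in the same order. Within 250 bp, PRRX1 summits near H3K27ac were 0 in MMTV WT and 0 in Wound WT, and within 1000 bp 3 in Wound WT. No paired analysis was possible because each group holds 1 list and no result comes from a test. Depth is unknown, so a region missing from a list, as over HoxC in MEF KI, says that no peak was called there.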
